A study of Mus musculus with 24 samples.

Results

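The genes described here are 3 genes that mark serotonin neurons, Tph2, Slc6a4 and Fev, and 7 genes for serotonin receptors, Htr1a, Htr1b, Htr2a, Htr2c, Htr4, Htr6 and Htr7. They were chosen by name, as the rows with these symbols in the expression tables, and are 10 of 30270 genes listed in all. RNA-seq was carried out on bilateral micropunches of the ventral tegmental area (VTA) and the nucleus accumbens (NAc) of C57BL/6 mice. The mice were either wild-type (WT, VDR+/+) or lacked the vitamin D receptor in the whole animal (Vdr-/-, VDR-/-), and were injected intraperitoneally with PBS or with 5 mg/kg morphine sulfate. The study's text gives 90 min between injection and dissection for these libraries, while its methods give an earlier time for saline-injected controls, so injection and time may not be separable. Each of the 8 combinations of region, genotype and injection had 3 libraries, 24 in all, and the labels carry the same mouse numbers in both regions. The WT mice are numbered 1, 2 and 3 (PBS) and 1.0, 1.1 and 1.2 (morphine), and the Vdr-/- mice 7, 8 and 9 (PBS) and 2.0, 2.1 and 2.2 (morphine). The Vdr-/- mice were kept on a diet enriched in calcium and lactose, and the diet of the WT mice and the ages of these 12 mice are not given in the sources used here. If the WT mice did not have that diet, genotype and diet cannot be told apart.

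Serotonin is made by neurons of the raphe nuclei of the midbrain and hindbrain, whose axons reach both the VTA and the NAc. Tph2 encodes the rate-limiting enzyme of serotonin synthesis in the brain, Slc6a4 the transporter that takes serotonin back up, and Fev (also called Pet1) an ETS-family transcription factor that maintains serotonin neuron identity. Their transcripts lie mainly in the cell bodies, whereas the receptor transcripts are made by the neurons that respond to serotonin. Htr1a and Htr1b encode receptors that couple to inhibitory G proteins and lower cAMP, Htr2a and Htr2c receptors that signal through phospholipase C, and Htr4, Htr6 and Htr7 receptors that raise cAMP. The VTA holds dopamine neurons and the NAc, to which they project, holds mostly medium spiny neurons. In such bulk samples fewer cells of a type and less RNA per cell cannot be told apart.

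The libraries held 12421680 to 30184426 reads on genes in the VTA and 9328726 to 24509922 in the NAc. Levels of a gene in a library are given here as CPM, a gene's reads scaled so that every library has the same total. The targeted gene Vdr had 0 to 17 reads in any library, 0 to 17 in Vdr-/- and 1 to 17 in WT, so it cannot check the genotype labels at this depth. The dopamine transporter Slc6a3 was at 14.1 to 1144 CPM in the VTA libraries and at 0.530 to 4.44 CPM in the NAc libraries. The VTA libraries also differed from each other in this marker of dopamine neurons and in markers of neighbouring tissue. Slc6a3 was at 877 to 1144 CPM in WT PBS, 14.1 to 157 in WT morphine, 133 to 827 in Vdr-/- PBS and 163 to 378 in Vdr-/- morphine, and the hypothalamic neuropeptide gene Hcrt reached 245.5 CPM in WT morphine against at most 9.10 in WT PBS. Ttr, a choroid plexus gene, was at 95.2 CPM in the VTA of Vdr-/- morphine mouse 2.1. The correlation across genes between exon length and a library's deviation from the other libraries of its region (Spearman's rho, a sign of RNA or library quality) ran from -0.178 to -0.016 in VTA PBS libraries and from 0.023 to 0.126 in VTA morphine libraries. In the NAc it ran from -0.315, in WT PBS mouse 2, to 0.041 with PBS and from 0.011 to 0.162 with morphine.

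The serotonin neuron genes are described first. Tph2 lies at chr10:115078641-115185022 (minus strand), Slc6a4 at chr11:76998603-77032340 (plus strand) and Fev at chr1:74881509-74885419 (minus strand) of GRCm38. The 250 bases before the transcription start of each, from RefSeq (GRCm38.p6), are shown because Tph2 and Slc6a4 were high together in 1 library and Fev, which encodes a factor of the ETS family, was not. They run 5′ to 3′ on the gene's own strand, and capitals mark matches on either strand to the GATA motif AGATAA or to the TATA motif TATAAA.
Tph2: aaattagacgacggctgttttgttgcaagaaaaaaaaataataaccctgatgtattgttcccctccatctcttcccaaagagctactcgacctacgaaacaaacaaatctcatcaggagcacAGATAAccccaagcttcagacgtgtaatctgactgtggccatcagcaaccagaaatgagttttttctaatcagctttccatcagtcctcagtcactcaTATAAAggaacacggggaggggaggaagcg
Slc6a4: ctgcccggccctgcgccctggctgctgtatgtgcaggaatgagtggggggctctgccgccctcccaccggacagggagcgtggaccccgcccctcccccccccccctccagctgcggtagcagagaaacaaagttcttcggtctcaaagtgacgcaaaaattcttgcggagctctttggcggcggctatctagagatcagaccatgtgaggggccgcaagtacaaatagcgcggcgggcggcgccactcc
Fev: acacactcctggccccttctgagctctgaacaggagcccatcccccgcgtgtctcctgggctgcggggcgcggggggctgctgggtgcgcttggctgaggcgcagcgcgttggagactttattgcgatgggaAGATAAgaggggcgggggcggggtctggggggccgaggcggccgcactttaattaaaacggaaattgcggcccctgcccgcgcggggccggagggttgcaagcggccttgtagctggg
These windows are chr10:115185023-115185272, chr11:76998347-76998596 and chr1:74885409-74885658. The Tph2 window held 1 match to AGATAA, starting 128 bases before the start, and 1 to TATAAA, starting 30 bases before it. The Fev window held 1 match to AGATAA, starting 118 bases before the start, and the Slc6a4 window held neither motif. The ETS motif CCGGAA was in none of the 3 windows. The motifs do not overlap each other in these windows. Among 32851 promoter windows of this length 12% held CCGGAA, 9.99% AGATAA and 12.4% TATAAA. The G and C content was 43.6% for Tph2, 64.8% for Slc6a4 and 68% for Fev.

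Tph2 was near the detection floor in every VTA library but 1. In WT PBS it had 13 reads (0.528 CPM) in mouse 1, 166 reads (9.10 CPM) in mouse 2 and 10 reads (0.456 CPM) in mouse 3. In WT morphine mice 1.0, 1.1 and 1.2 it had 5, 5 and 8 reads (0.258, 0.305 and 0.557 CPM). In Vdr-/- PBS mice 7, 8 and 9 it had 4, 9 and 14 reads (0.223, 0.725 and 0.464 CPM), and in Vdr-/- morphine mice 2.0, 2.1 and 2.2 it had 11, 2 and 2 reads (0.693, 0.114 and 0.136 CPM). WT PBS mouse 2 thus held 12.6 times the CPM of the next highest library, Vdr-/- PBS mouse 8, with a 95% counting interval of the ratio from 6.46 to 28.0. The other 11 libraries ranged together from 0.114 to 0.725 CPM, and there the 4 groups overlapped.

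Slc6a4 showed the same single high library. It had 5, 98 and 7 reads (0.203, 5.37 and 0.319 CPM) in WT PBS mice 1, 2 and 3. It had 1, 1 and 0 reads in WT morphine mice 1.0, 1.1 and 1.2, 1, 1 and 4 in Vdr-/- PBS mice 7, 8 and 9, and 0, 1 and 0 in Vdr-/- morphine mice 2.0, 2.1 and 2.2. WT PBS mouse 2 held 16.8 times the CPM of the next highest library, WT PBS mouse 3 (95% counting interval 7.87 to 43.0). The 3 WT PBS libraries were the highest of the 12, with 0.133 CPM the highest value outside them. With PBS the genotypes thus did not overlap, as at 20.5% of all genes tested there. Slc6a4 overlaps Gm12343 on the opposite strand, and whether the counting used the strand is not given in the sources used here.

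Fev did not share the pattern. It had 3, 7 and 5 reads in WT PBS mice 1, 2 and 3, 4, 2 and 3 in WT morphine mice 1.0, 1.1 and 1.2, 2, 4 and 8 in Vdr-/- PBS mice 7, 8 and 9, and 4, 3 and 3 in Vdr-/- morphine mice 2.0, 2.1 and 2.2. This is 0.111 to 0.384 CPM in the 12 libraries. In WT PBS mouse 2 Fev was 1.19 times the next highest library, with a counting interval from 0.303 to 5.55, so a difference of that size was not detectable at this depth.

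**Figure D1:**
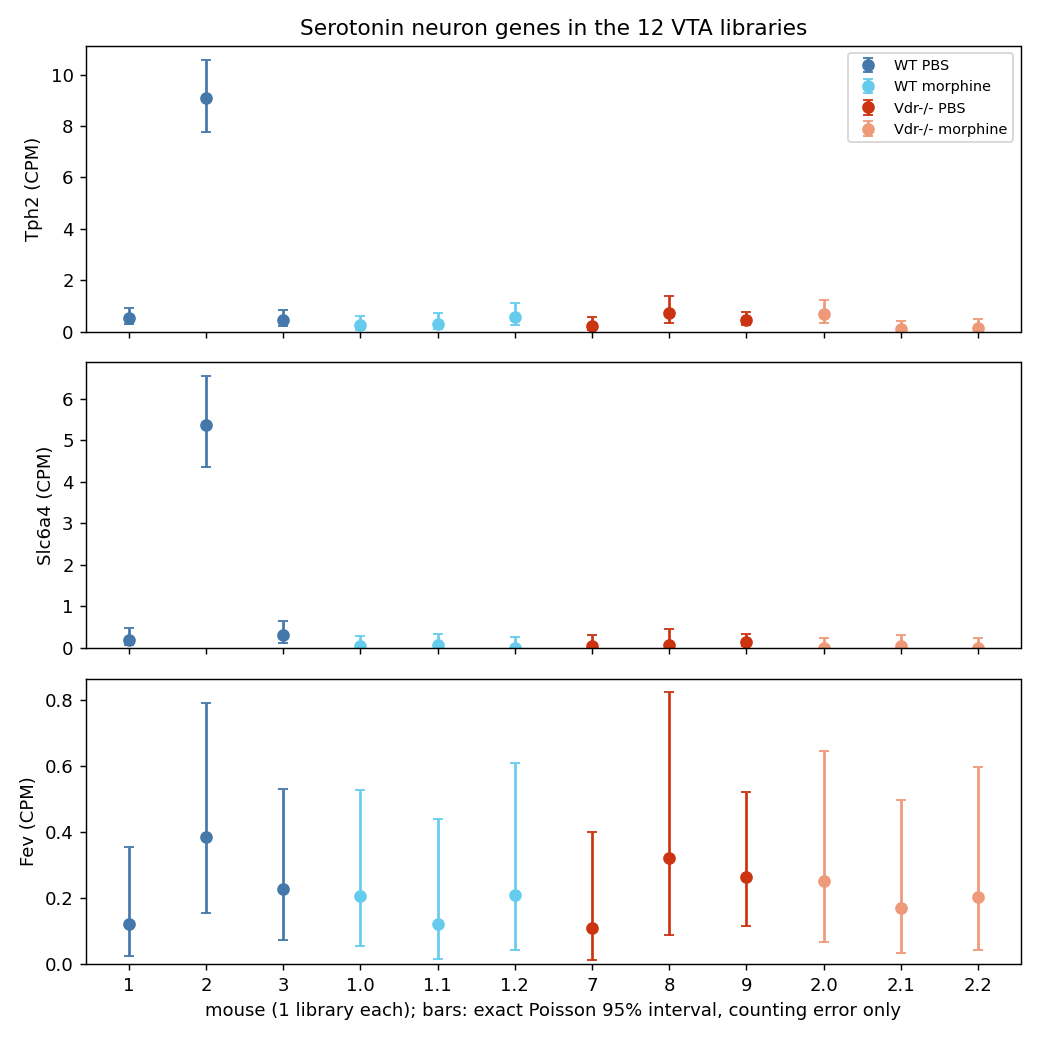
CPM of Tph2, Slc6a4 and Fev (one panel each, linear axes from 0) in each of the 12 VTA libraries, grouped by genotype and injection, with exact Poisson 95% intervals that cover counting error only. WT PBS mouse 2 is at 9.10 CPM for Tph2 and 5.37 CPM for Slc6a4, above every other library, while its Fev interval, 0.154 to 0.791 CPM, overlaps those of the other libraries.

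Other genes bear on that library as follows. Of the hindbrain list of 7 Hox genes, Hoxb3 had 19 reads (1.04 CPM) in WT PBS mouse 2 and was at most 0.775 CPM elsewhere in the VTA. The summed CPM of the 7 Hox genes was 0.162, 1.59 and 1.64 in WT PBS mice 1, 2 and 3, 0 in every WT morphine library, 0.0331 to 0.161 in Vdr-/- PBS and 0 to 0.0568 in Vdr-/- morphine. In mouse 3 Tph2 was at 0.456 CPM and Slc6a4 at 0.319 CPM. These sums rest on few reads, with at most 19 for any gene of the list in a VTA library. Hoxa3, Hoxb2 and Hoxd3 were also highest in mouse 2, at 3, 2 and 2 reads. Hoxa4 was higher in another library, and Hoxa2 and Hoxb4 had no reads in mouse 2. Dbh, Phox2a and Slc6a2, which mark noradrenaline neurons, had no reads in mouse 2. Of the genes that serotonin neurons share with dopamine neurons, Ddc (decarboxylase), Slc18a2 (vesicular transport), Lmx1b and En1 (transcription factors) were at 250, 354, 28.1 and 28.5 CPM in mouse 2, each below the highest other VTA library. Gata2 and Gata3, factors of serotonin neuron identity, were at 8.77 and 11.5 CPM there, also below the highest other library (11.03 and 14.3 CPM). The part of any of these in the Tph2 and Slc6a4 reads was not tested.

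In the NAc, Tph2 had 1 to 10 reads per library (0.0662 to 0.606 CPM) and Slc6a4 0 to 3 reads (0 to 0.172 CPM), and the ranges of the 4 groups overlapped for both genes. Fev was not listed in any of the 4 NAc tables, whose rows all hold at least 2 reads. WT PBS mouse 2, the high library in the VTA, had 1 Tph2 read and 2 Slc6a4 reads in the NAc.

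That single library enters 2 comparisons of groups within the VTA. Between genotypes in the VTA with PBS, log2 fold changes (Vdr-/- over WT, from limma on the deposited normalized values after adding 1, as all fold changes here) were -1.56 (SE 1.05) for Tph2 and -2.57 (SE 1.07) for Slc6a4. Neither passed limma's test (Benjamini-Hochberg adjusted p = 0.535 and 0.335). In WT mice morphine against PBS gave -2.52 (SE 1.06, adjusted p = 0.208) for Tph2 and -3.78 (SE 1.22, adjusted p = 0.128) for Slc6a4. DESeq2 on the recovered reads called Slc6a4 in both, with adjusted p = 0.0102 for genotype, where it called 1.72% of all genes, and 0.00149 for morphine, where it called 8.79%. Without WT PBS mouse 2 it called neither, and its adjusted p was not available for that gene. Tph2 and Slc6a4 passed the filter on low values (a mean normalized value of 10) in these comparisons only through that library. Without it they fell below the filter. Their tests in these comparisons, by limma or by DESeq2, therefore carry no weight. The same holds for both genes in the difference of the morphine effect between genotypes in the VTA (2.12, SE 1.46, for Tph2 and 2.72, SE 1.55, for Slc6a4, neither called) and for Tph2 between the regions. In all other comparisons they did not pass the filter.

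The 10 genes most like the mean of Tph2, Slc6a4 and Fev over the 12 VTA libraries had Pearson's r between 0.809 and 0.90. The first was Ephb1, an ephrin receptor gene, with r = 0.90 and Spearman's rho = 0.62, and its r fell to 0.62 without WT PBS mouse 2. It was at 95.3 CPM in that library and at 68.6 to 83.2 CPM in the others. Map4k4, Mapre1, Tmem269, Klhl4, Omg, G6pdx, Erbin, Atg4c and Fam204a followed. These are values over 12 libraries that share groups and depth, and no gene of the serotonin lists was among them.

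The receptors were read far more deeply than the neuron genes. To compare genes with each other, levels were divided by exon length (RPKM, the CPM per kilobase of exon). In the VTA the medians over 12 libraries fell in the order Htr2c (18.9 RPKM), Htr7 (6.85), Htr1b (4.60), Htr1a (3.54), Htr2a (2.67), Htr4 (1.37) and Htr6 (0.688). From Htr7 downwards each receptor's range overlapped that of its neighbour, although within each library Htr7 was above Htr1b, Htr1b above Htr1a, Htr1a above Htr2a, Htr2a above Htr4 and Htr4 above Htr6 in all 12. Htr2c was apart, at 16.2 to 23.2 RPKM against at most 8.93 for Htr7. The medians of Tph2, Fev and Slc6a4 were 0.160, 0.128 and 0.0130 RPKM.

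In the NAc the order was Htr2c (18.2 RPKM), Htr1b (11.5), Htr2a (6.40), Htr1a (3.91), Htr7 (2.53), Htr6 (2.401) and Htr4 (1.38). Htr1b, at 10.4 to 18.7 RPKM, lay above every value of Htr2a and overlapped Htr2c, which was the higher of both in 11 of 12 libraries. Htr2a exceeded Htr1a in 8 of 12 libraries, so their order varied between libraries. Htr7 exceeded Htr6 in 7 of 12, and this order went with the injection. Htr7 was above Htr6 in every morphine library. With PBS it was below Htr6 in every library but that of Vdr-/- mouse 8 (2.63 against 2.55 RPKM). Htr1a exceeded Htr7 and Htr6 exceeded Htr4 in all 12.

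**Figure D2:**
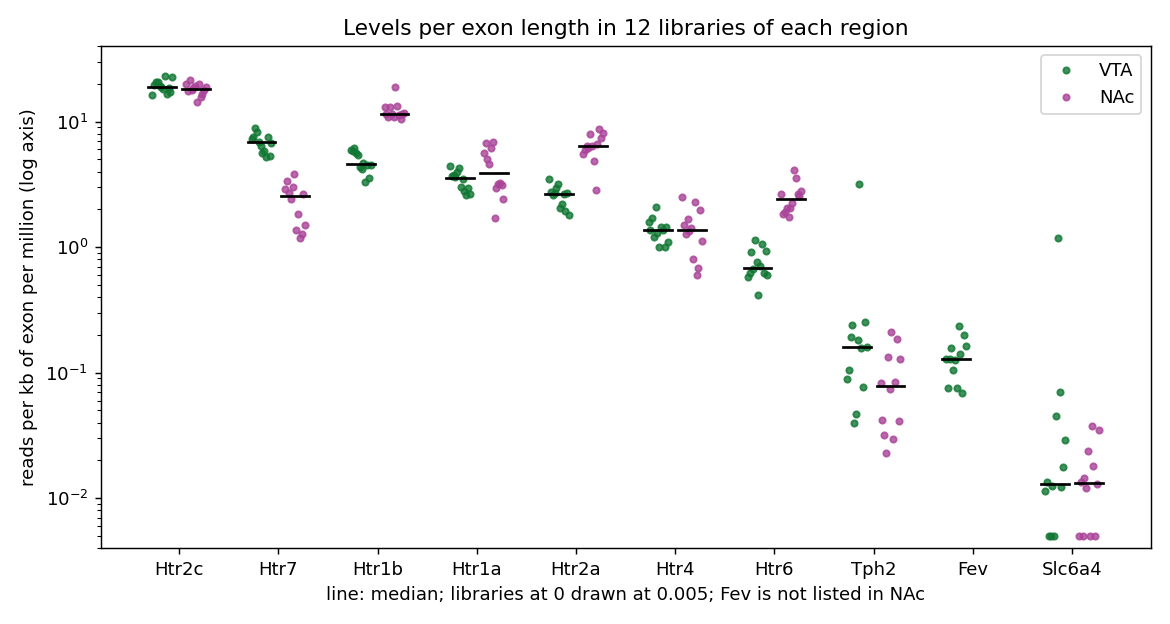
CPM per kilobase of exon (RPKM, log axis) of the 10 genes in the 12 VTA and 12 NAc libraries, 1 point per library with the median as a line. Values at 0 are drawn at 0.005 and Fev is not listed in the NAc. Htr2c is highest in both regions, at medians of 18.9 and 18.2, and the single high points of Tph2 (3.16) and Slc6a4 (1.19) are VTA WT PBS mouse 2.

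Between the regions, 5 of the 8 genes tested passed limma's test, fitted over all 24 libraries on 1 scale, 4 higher and 1 lower in the NAc. The background was high, with 73% of all genes called (35.2% higher in the NAc and 37.8% lower), so the share of members called was not above it. Htr6 was higher in the NAc by 1.78 on the log2 scale (SE 0.143, adjusted p = 4.64e-10), Htr1b by 1.41 (SE 0.0773, adjusted p = 8.96e-13), Htr2a by 1.35 (SE 0.106, adjusted p = 3.29e-10) and Htr1a by 0.29 (SE 0.0931, adjusted p = 0.00914). Htr7 was the only receptor called lower in the NAc, at -1.56 (SE 0.107, adjusted p = 3.3e-11). Its 12 NAc libraries, at 4.04 to 13.1 CPM, all lay below its 12 VTA libraries, at 17.8 to 30.4 CPM. Htr1b (49.1 to 88.2 CPM in the NAc and 15.5 to 29.0 in the VTA) and Htr6 (4.07 to 9.55 and 0.974 to 2.67 CPM) did not overlap between the regions either. The share of all genes without overlap between the regions was not computed, so this separation cannot be read as particular to these receptors. For Htr2c the difference was -0.03 (95% interval -0.17 to 0.11) and for Htr4 0.01 (-0.39 to 0.41), and neither passed the test. Tph2, the eighth gene, passed the filter there only through VTA WT PBS mouse 2, so its difference of -0.93 (SE 0.442) is given with no test.

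With morphine, Htr1a was higher than with PBS in all 4 comparisons, and limma called it in 2 of them. The gene (chr13:105443639-105448122) encodes the inhibitory receptor that serves both as an autoreceptor on serotonin neurons and as a receptor on their targets. In the NAc of Vdr-/- mice it was at 14.5, 13.96 and 10.8 CPM with PBS (mice 7, 8 and 9) and at 20.5, 27.5 and 30.7 CPM with morphine (mice 2.0, 2.1 and 2.2). The groups did not overlap, as at 37.9% of all genes tested in this comparison, and the log2 fold change was 0.95 (SE 0.145, adjusted p = 0.00141). In the NAc of WT mice it was at 7.63, 13.3 and 14.3 CPM with PBS (mice 1, 2 and 3) and at 25.2, 30.0 and 22.4 CPM with morphine (mice 1.0, 1.1 and 1.2). The groups again did not overlap (25.5% of all genes), but with a log2 fold change of 1.15 (SE 0.235) the adjusted p was 0.0802. It fell to 0.028 without PBS mouse 2, the library with the length trend of -0.315, and DESeq2, which called 3.26% of all genes, gave 0.000427 with all libraries.

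In the VTA, Htr1a was at 11.6, 13.2 and 11.8 CPM in Vdr-/- PBS mice 7, 8 and 9 and at 16.3, 17.8 and 19.1 CPM in Vdr-/- morphine mice 2.0, 2.1 and 2.2. The deposited table of this comparison holds PBS mice 7 and 9 only, and over its 5 libraries the log2 fold change was 0.59 (SE 0.0961, adjusted p = 0.0171). In WT mice Htr1a was at 13.6, 15.5 and 12.5 CPM with PBS (mice 1, 2 and 3) and at 19.7, 16.5 and 16.7 CPM with morphine. The table holds PBS mice 1 and 2 and gave 0.24 (SE 0.11, adjusted p = 0.234). The lowest morphine library thus lay above the highest PBS library in both genotypes, by a smaller margin in WT. Over the libraries of the tables the groups did not overlap at 48.4% of all genes in Vdr-/- and 44.3% in WT mice. The call in Vdr-/- mice was lost without morphine mouse 2.2 (adjusted p = 0.0624), PBS mouse 7 (0.136) or PBS mouse 9 (0.0711).

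Htr1b (chr9:81628291-81633828), the inhibitory receptor found on axon terminals, passed the test in none of the morphine or genotype comparisons with limma. In the VTA of WT mice it was at 19.8, 22.2 and 15.5 CPM with PBS and at 28.2, 27.4 and 29.0 CPM with morphine, without overlap. Over the 5 libraries of the table, where 44.3% of all genes did not overlap, the log2 fold change was 0.40 (SE 0.0871, adjusted p = 0.0605). The call was made with all 3 PBS mice (0.55, adjusted p = 0.0359, with 12.3% of all genes called), by DESeq2 (0.40, adjusted p = 0.0299) and without morphine mouse 1.1 (0.40, adjusted p = 0.0319). In Vdr-/- mice the VTA groups overlapped, at 16.7 to 21.4 CPM with PBS and 20.4 to 26.5 CPM with morphine. With morphine, Htr1b in the VTA was lower in Vdr-/- than in WT in every library, at a log2 fold change of -0.24 (SE 0.107, adjusted p = 0.574), and 14.5% of all genes did not overlap in this comparison. In the NAc it was at 49.1 to 88.2 CPM, with overlap of all 4 groups. Htr1b overlaps D430036J16Rik on the opposite strand.

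Htr2a (chr14:74640840-74709494) encodes the receptor at which classical hallucinogens act. In the VTA of Vdr-/- mice it was at 10.9, 15.2 and 10.1 CPM with PBS (mice 7, 8 and 9) and at 15.2, 16.5 and 17.8 CPM with morphine (mice 2.0, 2.1 and 2.2). Over the table's 5 libraries it rose by 0.64 on the log2 scale (SE 0.102, adjusted p = 0.0164). PBS mouse 8, which the table leaves out, was level with the lowest morphine library, and with it the call was lost (0.46, adjusted p = 0.101, with 7.67% of all genes called). It was also lost without morphine mouse 2.2 (adjusted p = 0.0609), PBS mouse 7 (0.0981) or PBS mouse 9 (0.0754). Htr2a in the VTA of WT mice was at 11.5, 12.3 and 14.7 CPM with PBS and at 19.6, 15.3 and 14.6 CPM with morphine, with a log2 fold change of 0.43 over the table's 5 libraries (SE 0.132, adjusted p = 0.117).

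In the NAc, Htr2a varied widely between WT PBS libraries. It was at 27.3, 16.1 and 37.1 CPM in WT PBS mice 1, 2 and 3 and at 48.9, 41.7 and 45.4 CPM in Vdr-/- PBS mice 7, 8 and 9. The groups did not overlap, but the log2 fold change of 0.86 (SE 0.291) had an adjusted p of 0.484, and groups did not overlap at 16.9% of all genes in this comparison. With morphine the values were 31.1, 33.0 and 35.6 CPM in WT and 34.4, 44.9 and 36.1 CPM in Vdr-/-, at a log2 fold change of 0.21 (SE 0.0985, adjusted p = 0.658). No member was without overlap there, against 13.5% of all genes. Morphine against PBS gave 0.36 (SE 0.284, adjusted p = 0.537) in WT and -0.28 (SE 0.097, adjusted p = 0.0614) in Vdr-/- mice. The latter was called without morphine mouse 2.1 (-0.40, adjusted p = 0.0164) or PBS mouse 8 (-0.35, adjusted p = 0.0298). The difference between these effects was -0.65 (SE 0.335, adjusted p = 0.854). The summed CPM of 5 cortical and hippocampal marker genes in the NAc was 426 to 917 in WT PBS and 652 to 1156 in Vdr-/- PBS, and its part in the Htr2a values was not tested.

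Htr2c (chrX:146962513-147197277), the most abundant receptor, was the steadiest. It was at 151 to 216 CPM in the VTA and 132.5 to 198 CPM in the NAc. Its largest log2 fold change in the 8 morphine and genotype comparisons was 0.22 (95% interval -0.08 to 0.52), for morphine in the NAc of WT mice. None passed the test and its groups overlapped in all 8. Choroid plexus cells also express Htr2c, and the library with 95.2 CPM of Ttr had 177 CPM of Htr2c, inside the VTA range. The genes most like Htr2c were Wdr37 (r = 0.86, rho = 0.87), Col24a1, Elovl4, Mir124-2hg and Eif2s2 over the 12 VTA libraries, and Mrpl1 (r = 0.87, rho = 0.89), Ccnjl, Gm47033, Ttc39c and Amer3 over the 12 NAc libraries. No gene was among the 5 in both regions. Several small RNA genes lie within Htr2c, among them Snora35.

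Htr7 (chr19:35958734-36057507), which encodes a receptor that raises cAMP, rose with morphine in the NAc of both genotypes. In WT mice it was at 4.66, 6.19 and 4.04 CPM with PBS (mice 1, 2 and 3) and at 9.79, 11.4 and 9.22 CPM with morphine (mice 1.0, 1.1 and 1.2). The groups did not overlap, as at 25.5% of all genes tested in this comparison. The log2 fold change of 1.01 (SE 0.168) passed the test narrowly (adjusted p = 0.0497). The call was lost when any library but PBS mouse 2 was left out, that is PBS mouse 1 or 3 or morphine mouse 1.0, 1.1 or 1.2 (adjusted p from 0.114 to 0.246). In Vdr-/- mice it was at 4.29, 8.93 and 5.13 CPM with PBS (mice 7, 8 and 9) and at 8.28, 10.3 and 13.1 CPM with morphine (mice 2.0, 2.1 and 2.2). Here PBS mouse 8 lay above morphine mouse 2.0, and the log2 fold change was 0.79 (SE 0.236, adjusted p = 0.0377). It was lost without PBS mouse 7 or 9 or morphine mouse 2.1 or 2.2 (adjusted p from 0.0974 to 0.143).

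Htr7 in the VTA of WT mice was at 19.1, 19.95 and 17.8 CPM with PBS and at 24.6, 25.8 and 30.4 CPM with morphine, without overlap. Over the table's 5 libraries groups did not overlap at 44.3% of all genes. The log2 fold change over these libraries was 0.42 (SE 0.119, adjusted p = 0.0983), and with all 3 PBS mice it was 0.48 (adjusted p = 0.0295). In Vdr-/- mice the groups overlapped, at 18.2 to 25.6 CPM with PBS and 21.8 to 28.2 CPM with morphine. The difference of the morphine effect between genotypes was -0.42 for Htr7 (SE 0.183, unadjusted p = 0.0439, adjusted p = 0.392 in limma) and 0.35 for Htr1a (SE 0.144, unadjusted p = 0.037, adjusted p = 0.379). Neither passed the test.

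Htr6 (chr4:139061108-139075570), which also raises cAMP and is known for its level in the striatum, fell with morphine in the NAc of Vdr-/- mice. It was at 6.25, 5.97 and 6.56 CPM with PBS (mice 7, 8 and 9) and at 4.77, 4.07 and 4.82 CPM with morphine (mice 2.0, 2.1 and 2.2). The groups did not overlap, as at 37.9% of all genes tested in this comparison, and the log2 fold change was -0.50 (SE 0.133, adjusted p = 0.0241). DESeq2, which called 13.4% of all genes there, did not make this call (adjusted p = 0.0878), and limma lost it without PBS mouse 7 (0.0605), PBS mouse 9 (0.0951) or morphine mouse 2.1 (0.0885). In WT mice it was at 5.27, 9.55 and 8.36 CPM with PBS and at 6.19, 4.32 and 4.48 CPM with morphine, with overlap (-0.62, SE 0.242, adjusted p = 0.263). In the VTA it was at 24 to 54 reads per library, 0.974 to 2.67 CPM.

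Htr4, on chromosome 18, was at 4.91 to 10.2 CPM in the VTA and varied more in the NAc, at 2.94 to 12.3 CPM. It was at 3.94, 11.2 and 2.94 CPM in NAc WT PBS mice 1, 2 and 3 and at 3.33, 9.64 and 5.502 CPM in Vdr-/- PBS mice 7, 8 and 9, so that 1 library was above the others in each PBS group. It passed the test in none of the morphine or genotype comparisons.

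**Figure D3:**
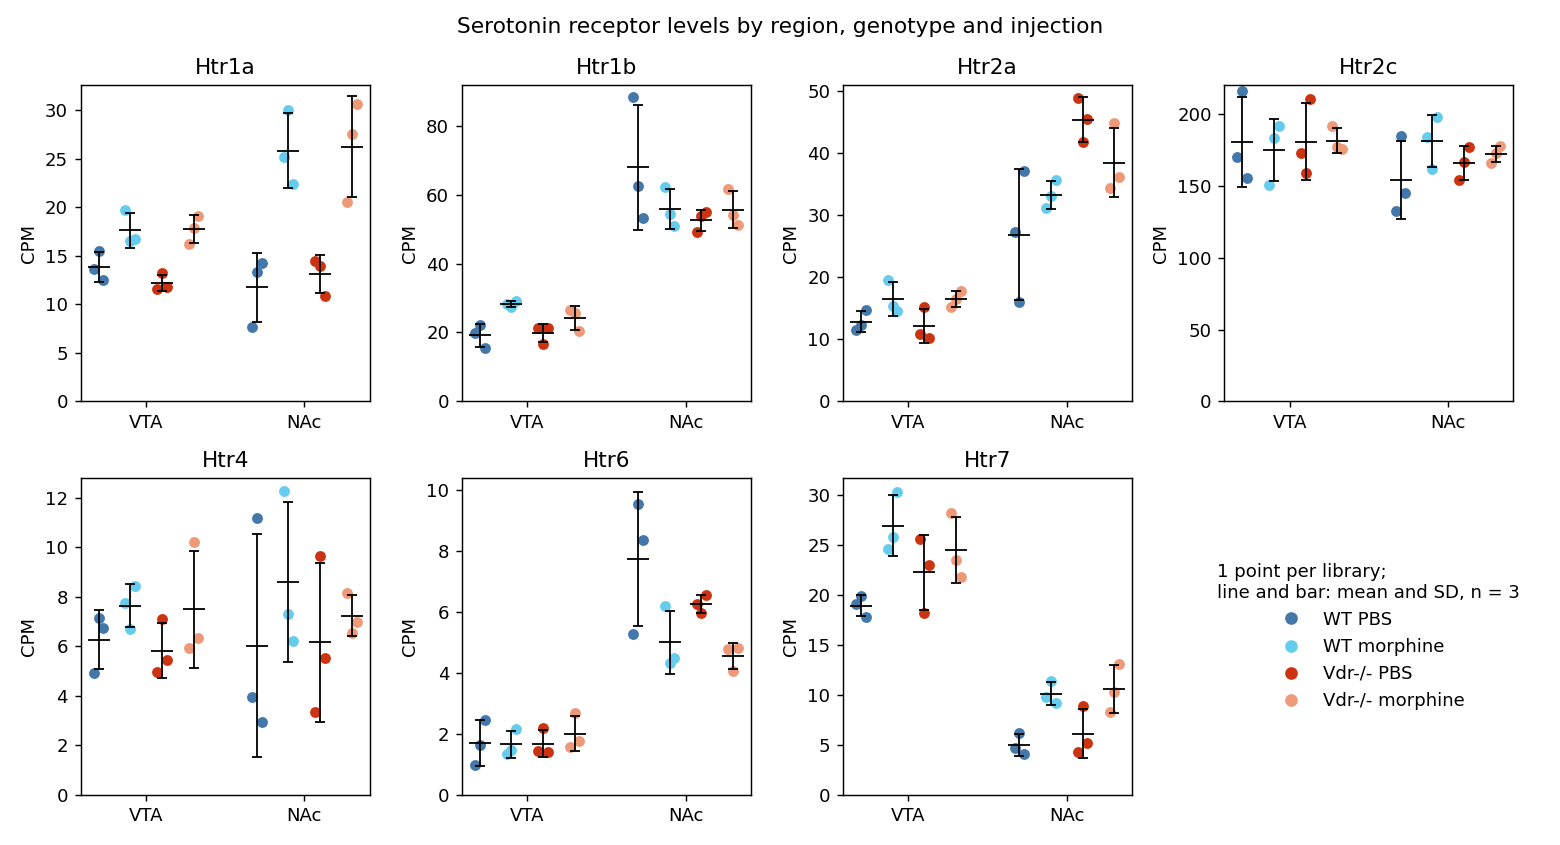
CPM of the 7 receptor genes (one panel each, linear axes from 0) by region, genotype and injection, 1 point per library with the group mean and SD (n = 3). Htr1a in the NAc is at 7.63 to 14.5 CPM with PBS and 20.5 to 30.7 CPM with morphine, and Htr7 is higher in the VTA than in the NAc in every library.

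Counted over the 10 genes, no member passed limma's test for genotype. With PBS in the VTA 9 members passed the filter and 0 were called (0.39% of all genes were), with 1 at an unadjusted p under 0.05, which was Slc6a4. Tph2 and Slc6a4 are among the 9 only through WT PBS mouse 2, so their tests carry no weight. Without that mouse 7 members were tested. With morphine in the VTA 0 of 7 were called (0.0624% of all genes), with 0 at an unadjusted p under 0.05. In the NAc 0 of 7 were called with PBS (0.069% of all genes), with Htr2a alone at an unadjusted p under 0.05, and 0 of 7 with morphine (0.192%), with none under 0.05. edgeR called 0 in all 4 comparisons and DESeq2 called 0 except for Slc6a4 in the VTA with PBS, a call that was absent without WT PBS mouse 2. The median log2 fold change of the 7 receptors lay between -0.01 and 0.17 in these 4 comparisons, against -0.0017 to 0.0129 for all genes tested.

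Morphine comparisons called 0 to 3 members each. Among WT mice 0 of 9 members tested were called in the VTA (3.65% of all genes), with 4 at an unadjusted p under 0.05. Of these 4, 3 were receptors and the other was Slc6a4. There edgeR called 0 and DESeq2 2, Htr1b and Slc6a4. Tph2 and Slc6a4 were again tested only through WT PBS mouse 2, so their tests carry no weight. In the VTA of Vdr-/- mice 2 of 7 were called, both higher (4.74% of all genes were called higher and 10% in either direction). In the NAc of WT mice 1 of 7 was called, higher (0.413% of all genes higher, 0.813% in either direction). In the NAc of Vdr-/- mice 3 of 7 were called, 2 higher and 1 lower, where 9.94% of all genes were called higher and 9.13% lower (19.1% in all). The median log2 fold change of the 7 receptors was 0.32, 0.44, 0.36 and 0.04 in these 4 comparisons, and that of all genes was -0.0050, -0.0018, 0.0075 and -0.0065. The genotype and morphine comparisons of a region share libraries and are not independent of each other.

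**Figure D4:**
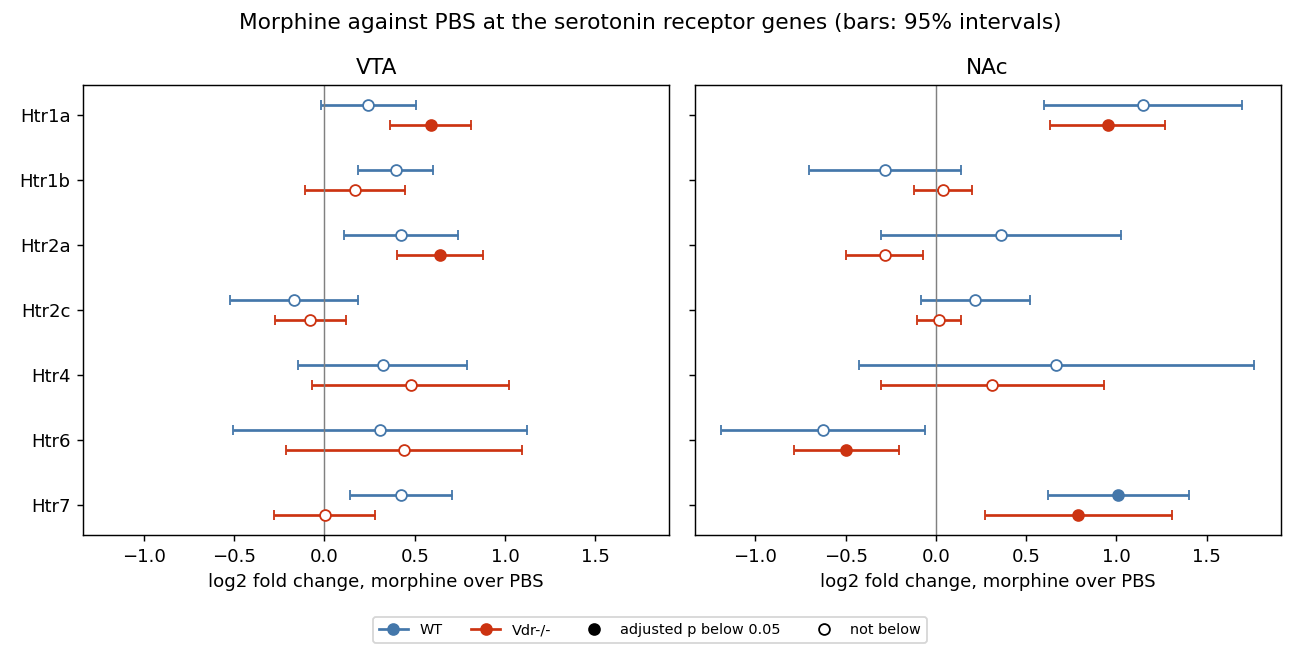
Log2 fold changes of the 7 receptor genes, morphine over PBS, in VTA (left) and NAc (right) for WT and Vdr-/- mice, with 95% intervals from limma. Filled points have an adjusted p below 0.05, which are Htr1a and Htr2a in the VTA of Vdr-/- mice, Htr7 in the NAc of both genotypes, and Htr1a and Htr6 in the NAc of Vdr-/- mice.

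No member passed the test for a difference of the morphine effect between genotypes. In the VTA 0 of 9 were called by limma, edgeR and DESeq2 (0.0553% of all genes by limma), with Htr1a and Htr7 at an unadjusted p under 0.05. Of the 9, Tph2 and Slc6a4 passed the filter only through WT PBS mouse 2. In the NAc 0 of 7 were called by each tool (0% of all genes by limma), with 0 at an unadjusted p under 0.05. A receptor called in one genotype only is therefore not shown to respond differently in the other.

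Markers of other cells moved with the same comparisons. With morphine 12 of 15 dopamine neuron genes were called lower in the VTA of WT mice (1.88% of all genes were), and their summed CPM was 3114 to 3868 with PBS and 333.5 to 827 with morphine, with no gene of the list at 0. In the VTA of Vdr-/- mice, where Htr1a and Htr2a rose, that sum was 780 to 3008 with PBS and 865 to 1653 with morphine, and 5 of 5 oligodendrocyte genes were called lower (5.28% of all genes were). In the NAc the summed CPM of 10 medium spiny neuron genes was 4395 to 5044 with PBS and 2840 to 3614 with morphine in WT mice, with 3 of the 10 called lower (0.4% of all genes were). In Vdr-/- mice it was 3808 to 4410 with PBS and 2487 to 2849 with morphine, with 10 of 10 called lower (9.13% of all genes were). None of the 10 was at 0 in any NAc library. Where Htr1a and Htr7 rose in the NAc of Vdr-/- mice, 4 of 5 astrocyte genes were called higher (9.94% of all genes were). Their summed CPM was 768 to 807 with PBS and 947 to 1035 with morphine. In the NAc of WT mice 1 of the 5 was called higher (0.413% of all genes were), with sums of 784 to 857 and 933 to 1097. Microglia genes went the other way, with 3 of 5 called lower in the VTA of WT mice, where 1.88% of all genes were. Their sums there were 196 to 228 with PBS and 113 to 130 with morphine. In the NAc of Vdr-/- mice 3 of 5 were called lower (9.13% of all genes were), with sums of 196 to 209 and 162 to 180. The summed CPM of 7 hypothalamic and mammillary genes in the VTA was 42.1 to 153.5 in WT PBS and 225 to 1012 in WT morphine, with none of the 7 called. In the VTA of Vdr-/- mice it was 56.0 to 368 with PBS and 159 to 283 with morphine. There 2 of the 7 were called higher and 0 lower (4.74% of all genes were called higher). No astrocyte, microglia or hypothalamic gene was at 0 in these groups. The part of these markers, and of the exon length trend, in the receptor changes was not tested.

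Of 7 other serotonin receptor genes, 4 or 5 passed the filter in each morphine and genotype comparison, and only Htr1d, an inhibitory receptor like Htr1b, was called. It fell with morphine in the NAc of WT mice, from 12.04 ± 1.49 to 6.09 ± 1.17 CPM (SD, n = 3), at a log2 fold change of -1.01 (SE 0.161, adjusted p = 0.044). In Vdr-/- mice it fell from 10.5 ± 0.857 to 5.99 ± 0.576 CPM (SD, n = 3), at -0.84 (SE 0.119, adjusted p = 0.00093). Neither pair of groups overlapped, as at 25.5% of all genes in WT and 37.9% in Vdr-/- mice. Htr5a was at 15.1 to 20.3 CPM in the VTA and 13.9 to 19.5 CPM in the NAc. Htr2b and Htr3b had at most 5 reads in any library.

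Of 16 genes for serotonin synthesis, storage, breakdown and identity, 14 passed the filter in the VTA and 11 in the NAc. With morphine 7 of the 14 were called lower and 0 higher in the VTA of WT mice, where 1.88% of all genes were called lower and 3.65% in either direction. They were Ddc (-2.90), Slc18a2 (-3.06), Gch1 (-2.19) and Qdpr (-0.57), which act in transmitter synthesis, in vesicle loading and in making or recycling the synthesis cofactor, and the transcription factor genes Gata3 (-3.72), En1 (-4.24) and Lmx1b (-1.13), all as log2 fold changes. Ddc, Slc18a2, Lmx1b and En1 are also in the dopamine neuron list. Whether the fall of these 7 genes concerns serotonin neurons, dopamine neurons or both was not tested. In the other 7 morphine and genotype comparisons none of the list was called by limma, with 1 to 6 genes at an unadjusted p under 0.05. Tph1, the synthesis enzyme of peripheral tissues, was at 0.0406 to 0.209 CPM in the VTA.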

How the data were processed

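Bilateral micropunches of the VTA and NAc of 12 mice gave 24 RNA-seq libraries (NEXTflex Rapid Directional kit, paired-end reads). Per the study's methods and processing notes, the authors used CASAVA 1.8, Trimmomatic 0.36, STAR 2.4.2a (gene counts, GENCODE annotation of GRCm38) and DESeq2. The values were deposited as 8 tables of normalized signal, that is read counts divided by each library's size factor within the table. The read counts were recovered by that division's inverse (100% of values whole within 0.01), since each table was scaled separately.

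Morphine and genotype were compared within a table by limma 3.58.1 with a trend, on log2(value + 1), leaving out genes whose values averaged below 10. p-values were adjusted over all genes by Benjamini-Hochberg at 0.05. For morphine in the VTA each table has 5 libraries, and WT PBS mouse 3 and Vdr-/- PBS mouse 8 are in other tables only. The regions were compared on recovered reads set on 1 scale. The difference of effects used the deposited values, with each morphine effect taken within its own table. Nothing says how many cages or litters the mice came from, so p-values measure the spread between these libraries. DESeq2 1.42.0 and edgeR 4.0.16 on recovered reads, a pseudocount of 0.5, no filter, each library left out and all 3 PBS mice were alternatives. The counting intervals (95%, exact) cover counting error only, and PCR reads without molecular identifiers are not independent molecules. The fits were tested on simulated data. Exon lengths are of GENCODE M21, in which 30204 of 30270 gene IDs were found.

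The members and lists were chosen with earlier results of these data known. Genes outside the lists were named by likeness to the 3 neuron genes (10 genes) and to Htr2c (5 per region), by Pearson's r over the 12 libraries of a region.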

Additional observations from a re-analysis of the deposited data

How the results depend on the processing

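Alternatives were run for 30 fold changes of members and for the counts of members called, and none of these fold changes turned direction. The 30 were fold changes called by limma and others picked for description, not all that were tested. Smaller ones, such as Htr6 for genotype in the VTA with PBS (0.03), were left out. Alternatives that gave a gene no adjusted p were skipped. The absence of a turn in direction therefore covers these 30 only. Htr2c, Htr4, Htr1d and the gene lists were not among the 30. For genotype in the VTA with PBS, DESeq2 called 1 member (Slc6a4) where limma called 0, and 282 genes against 64. DESeq2 was also run without WT PBS mouse 2, an alternative chosen after seeing the data, and then called 0 members in this comparison and in morphine against PBS of VTA WT mice. For morphine in VTA WT mice, DESeq2 called 2 members (1423 genes against 591) and the fit with all 3 PBS mice called 2, Htr1b and Htr7 (2001 genes). Leaving out 1 library gave 0 to 1 members, with Htr1b called without morphine mouse 1.1. In VTA Vdr-/- mice the fit with all 3 PBS mice called 1 member, Htr1a, and leaving out 1 library gave 0 to 2, with 0 without morphine mouse 2.2, PBS mouse 7 or PBS mouse 9. In NAc WT mice a pseudocount of 0.5 gave 0 (Htr7, adjusted p = 0.0503 in limma), DESeq2 gave 2 (Htr1a and Htr7, with 514 genes against 128), and leaving out 1 library gave 0 to 2, with 2 only without PBS mouse 2. In NAc Vdr-/- mice leaving out 1 library gave 1 to 5 members, with Htr1a alone without PBS mouse 7 or 9, and Htr2a and Htr4 added without PBS mouse 8. Htr2a was also called without morphine mouse 2.1. Htr1a kept its call there in all 10 alternatives (adjusted p from 1.56e-08 to 0.0127). The cause of these changes was not tested.

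Between the regions Htr1a, Htr1b, Htr2a, Htr6 and Htr7 were called in all 17 alternatives. Tph2 passed the filter only through VTA WT PBS mouse 2 and was not tested without that mouse, so its calls under other alternatives carry no weight. With the mouse number as a replicate block, 5 members and 72.9% of all genes were called, against 73% without it. Same-numbered libraries of the 2 regions deviated together with r from -0.067 to 0.168 over 16147 genes, above 0.1 in 3 of 12. Of the 12, 6 correlated best with their own number. These correlations cannot decide whether the numbers pair the libraries. The main fit did not use the numbers and treated same-numbered libraries as independent. No block could be made between genotypes or injections, which share no number. With 0 to 14 reads of Slc6a4, Tph2 and Fev in 11 of 12 VTA libraries, depth limits what could be detected.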
